A study of Mus musculus with 6 samples.

Results

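The 32 genes described here are genes by which blood and lymphatic endothelium is usually recognised, from the junction protein Cdh5 to the lymphatic regulator Prox1. They were chosen by name, and every probe set (a group of short probes that together read 1 transcript) that the array annotation gives to 1 of these genes was taken, with Gpr116 counted as Adgrf5, Eltd1 as Adgrl4 and Esam1 as Esam. This gave 56 of the 45037 probe sets that are not array controls, and 32 of 18193 annotated genes, 16 of them with 1 probe set and 16 with several. RNA came from primary aortic endothelial cell cultures of 2 groups of C57 mice that received no treatment, whose ages the labels do not give. The transgenic group carried a human PPARG with the V290M change, a dominant negative form of this lipid-sensing nuclear receptor, expressed from the promoter of CDH5, the gene of vascular endothelial cadherin, while the non-transgenic group lacked it. In each group 10 mice gave 5 cultures of 2 mice each, and 3 of these cultures were put on 1 Affymetrix array apiece, so that n = 3 cultures per group.

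Endothelial cells are held together by a cadherin at adherens junctions and by claudins at tight junctions, and carry sialomucins, lectins and receptors on the side that faces the blood. Their identity is kept by transcription factors of the ETS family (Erg, Fli1), the SOXF group (Sox7, Sox17, Sox18) and the GATA and TAL families, some of which also act in blood stem cells. Lymphatic endothelium is marked by Prox1, which sets lymphatic fate, and by the surface proteins Lyve1 and Pdpn. Several of these genes are not exclusive to endothelium: Cd34 and Pdpn are also known from fibroblasts of connective tissue, and Lyve1, Stab1, Lmo2 and Fli1 from macrophages or other blood cells.

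The promoters of 4 members are shown because they differ in whether the gene was measured above the level filter defined below. Emcn, Egfl7 and Eng were, and Robo4 was not on any array. Each run holds the 250 bases before a transcription start in RefSeq's table (build GRCm38.p6), 5′ to 3′. Capitals mark AGGAAG or its reverse CTTCCT, a core bound by ETS factors such as Erg and Fli1, and in Emcn also AACAAT, a core bound by SOX factors.
Emcn (chr3:137340828-137341077, + strand): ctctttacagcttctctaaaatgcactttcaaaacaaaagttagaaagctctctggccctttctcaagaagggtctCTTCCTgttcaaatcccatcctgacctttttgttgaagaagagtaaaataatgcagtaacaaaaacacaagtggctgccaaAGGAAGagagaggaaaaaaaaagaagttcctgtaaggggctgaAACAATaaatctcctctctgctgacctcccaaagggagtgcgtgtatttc
Egfl7 (chr2:26580833-26581082, + strand): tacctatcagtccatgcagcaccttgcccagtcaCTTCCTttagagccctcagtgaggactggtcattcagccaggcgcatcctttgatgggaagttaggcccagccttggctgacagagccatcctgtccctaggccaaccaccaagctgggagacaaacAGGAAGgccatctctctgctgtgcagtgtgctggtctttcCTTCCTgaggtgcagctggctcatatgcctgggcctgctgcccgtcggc
Eng (chr2:32646345-32646594, + strand): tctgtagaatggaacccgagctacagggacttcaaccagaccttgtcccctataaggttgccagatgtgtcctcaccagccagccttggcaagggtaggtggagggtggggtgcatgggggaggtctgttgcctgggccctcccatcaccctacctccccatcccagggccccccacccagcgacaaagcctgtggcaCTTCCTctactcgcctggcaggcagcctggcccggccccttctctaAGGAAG
Robo4 (chr9:37401722-37401971, + strand): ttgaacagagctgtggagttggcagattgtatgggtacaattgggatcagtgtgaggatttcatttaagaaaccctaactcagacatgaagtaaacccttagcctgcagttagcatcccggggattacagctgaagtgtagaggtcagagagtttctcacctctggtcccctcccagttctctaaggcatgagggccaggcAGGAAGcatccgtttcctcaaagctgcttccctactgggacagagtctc
All 4 windows hold the ETS core, Emcn with 2 matches, Egfl7 with 3, Eng with 2 and Robo4 with 1. Egfl7 has 3 windows in the table, with 3, 1 and 0 matches, and the one printed holds the most. The single window of Pdpn and both windows of Gata2, genes also measured above the filter, hold none. The single windows of Cldn5 and Clec14a and both windows of Prox1 and of Tal1, genes under the filter, hold none either. Of the 32 members, 17 had a window in the table, 25 windows in all, of which 12 held the ETS core on either strand, against 29.5% of 32851 windows of the same length. The SOX core AACAAT or ATTGTT stood in 2 of the 25 and in 9.42% of all windows, and the GATA core AGATAA or TTATCT in 2 of the 25 and in 9.99%. The 3 cores do not overlap one another in the windows printed. A match describes letters only, and in these windows it stood in genes above and under the filter and was missing in others of both kinds.

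All levels below are log2(signal + 16), where the signal is the deposited brightness of a probe set, and each difference is the transgenic mean minus the non-transgenic mean on that scale, where changes of dim genes come out too small. A probe set was counted as above the level filter where its mean over the 6 arrays reached 7.72, a signal of 194, the median of all probe sets. On this linear array scale a level can be compared between cultures for 1 probe set, and not between genes. The arrays of the 2 groups differed in ways that bear on all members. The median signal was 173.0 to 186.1 on the transgenic and 219.9 to 222.9 on the non-transgenic arrays, although all were scaled to the same trimmed mean, and centring each array on its median moved the median difference of the 11208 genes above the filter by 0.27, to 0.25, against -0.02 as deposited. The ratio of 3′ to 5′ signal of Gapdh control probe sets, a measure of RNA and amplification quality, was 1.20 to 1.44 on the transgenic and 1.51 to 1.71 on the non-transgenic arrays. The same ratio of actin control probe sets was 1.74, 1.40 and 2.21 in transgenic replicates 1, 2 and 3 and 2.17, 2.00 and 1.83 in the non-transgenic ones, with overlapping groups and the highest value on transgenic replicate 3. Transgenic replicate 3 stood apart from its group: over all probe sets its rank correlation was 0.940 and 0.925 with transgenic replicates 1 and 2 and 0.950 to 0.957 with the non-transgenic arrays. Replicates 1 and 2 can equally be read as the ones that stood apart, with replicate 2 at 0.921 to 0.932 with the non-transgenic arrays. Leaving out replicate 3, the transgenic array most like the other group, tends to enlarge group differences. For members above the filter, results are also given without this array where leaving it out changed a call or a direction, or moved a difference by a large amount. Under the filter they are given for some members only. There the brightest probe set also changed sign, from -0.39 to 0.29 for Sox18 and -0.19 to 0.14 for Erg. For Robo4 it went from 0.02 to -0.28 and for Tal1 from -0.12 to 0.03.

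Of the 32 genes that mark endothelium, 17 were not measured above the level filter in these cultures. The other 15 lay above it, which is 46.9%, against 61.6% of all 18193 genes. They were Pdpn among 6 junction and adhesion genes, 9 of 13 surface and matrix glycoproteins (Eng, Emcn, Egfl7, Ecscr, Cd34, Plvap, Cd93, Lyve1 and Thsd1), Adgrf5 among 3 receptors, and 4 of 10 transcription factors (Fli1, Sox7, Gata2 and Lmo2). By array the count was 15, 13 and 14 in transgenic replicates 1, 2 and 3 and 15, 14 and 15 in the non-transgenic ones, so the groups hardly differed in it. It was 12 for genes above on all 6 arrays, and 15 members were above on none. Some lay close to the filter: Sox7, Adgrf5 and Thsd1 had means of 7.74, 7.72 and 7.76, and Clec14a and Prox1, just under it, 7.48 and 7.44. In bulk cultures fewer cells of a type and less RNA per cell cannot be told apart.

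**Figure D1:**
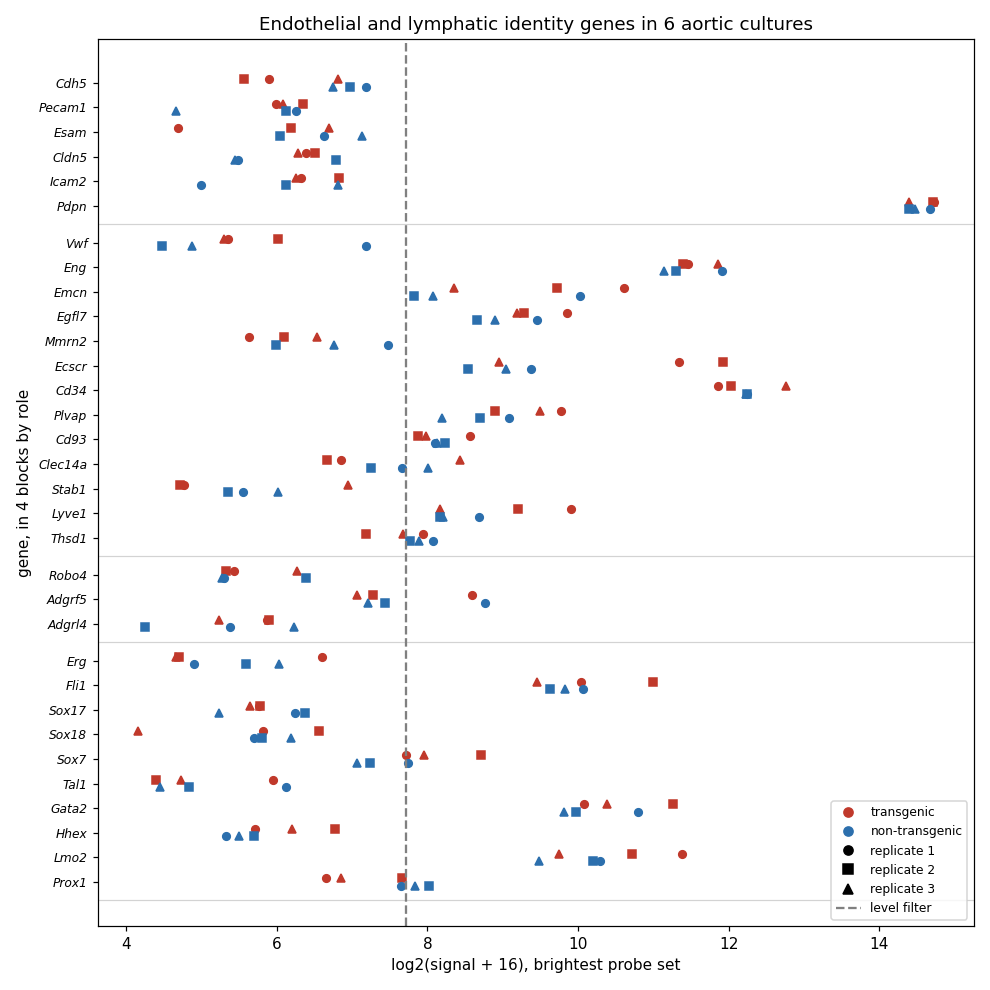
Level of the brightest probe set of each of the 32 genes in every culture (x axis, log2(signal + 16)), in 4 blocks by role, with 3 transgenic cultures in red above 3 non-transgenic ones in blue. The dashed line is the level filter at 7.72: 15 genes have a mean above it, and levels of different genes cannot be set against each other.

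Cdh5, the gene whose promoter drives the transgene, was read by 2 probe sets, neither above the filter on any array. The brighter was at 5.90, 5.56 and 6.81 in the transgenic cultures, against 7.19, 6.97 and 6.74 in the non-transgenic ones, a difference of -0.88 ± 0.40 (SE, n = 3 per group; limma adjusted p = 0.377 over all probe sets). The other was at 7.02, 5.85 and 6.38 against 6.93, 5.40 and 6.49, a difference of 0.15 ± 0.49 (limma adjusted p = 0.921), so the pair did not share a direction. Pecam1, the junction protein CD31, was at 5.99, 6.34 and 6.08 in transgenic cultures, against 6.25, 6.11 and 4.66 in non-transgenic cultures. Vwf, the clotting glycoprotein stored by endothelial cells, was at 5.35, 6.01 and 5.29 against 7.18, 4.47 and 4.87. For Pecam1 and Vwf the groups overlapped, and the spread within the non-transgenic group was larger than the gap between group means. Esam and Icam2, adhesion molecules of endothelial contacts, and Cldn5, the main tight junction claudin of endothelium, were likewise under the filter on every array. Their levels ran from 4.68 to 6.82 in the transgenic and from 4.99 to 7.13 in the non-transgenic cultures.

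Pdpn, a mucin-like glycoprotein of lymphatic endothelium, fibroblasts and mesothelium, was the member of the junction and adhesion group that was measured well. It was at 14.72, 14.71 and 14.39 in the transgenic cultures and at 14.68, 14.40 and 14.47 in the non-transgenic ones. The groups overlapped, and the difference of 0.09 ± 0.13 (SE, limma adjusted p = 0.780) was smaller than the spread between cultures.

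Among the surface glycoproteins Ecscr, a transmembrane protein of endothelial migration, differed most between the groups. Its level was 11.34, 11.93 and 8.95 in the transgenic cultures, against 9.37, 8.53 and 9.05 in the non-transgenic cultures. Transgenic replicates 1 and 2 were above every non-transgenic culture and replicate 3 lay inside their range. The mean was 10.74 ± 1.57 in transgenic and 8.98 ± 0.42 in non-transgenic cultures (SD, n = 3 each), a difference of 1.76 ± 0.71 (SE), or 3.38-fold on this scale. It did not pass the test over all genes (limma adjusted p = 0.428, unadjusted p = 0.039). Without transgenic replicate 3 the difference was 2.65 ± 0.31 (SE) and passed (limma adjusted p = 0.00449). It had 1 probe set.

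Emcn, endomucin, a sialomucin of capillary and venous endothelium, was at 10.61, 9.72 and 8.35 in transgenic cultures, against 10.03, 7.82 and 8.08 in non-transgenic cultures. Both groups ranged widely, and non-transgenic replicate 1 lay between transgenic replicates 1 and 2. The difference was 0.92 ± 0.72 (SE, limma adjusted p = 0.604), and 1.52 ± 0.63 without transgenic replicate 3 (limma adjusted p = 0.141). Egfl7, a protein that endothelial cells secrete into their matrix, had 4 probe sets, 2 of them above the filter. The brightest was at 9.86, 9.28 and 9.20 in transgenic cultures, against 9.46, 8.65 and 8.90 in non-transgenic cultures. All 4 probe sets had a positive difference, from 0.07 to 0.44, with overlapping groups. The difference on the brightest was 0.44 ± 0.32 (SE, limma adjusted p = 0.578), and this probe set is of a kind that can bind transcripts of more than 1 gene, as are 7 of the 56.

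Plvap, which forms the diaphragms of endothelial fenestrae and caveolae, was at 9.78, 8.90 and 9.50 in the transgenic and at 9.08, 8.70 and 8.20 in the non-transgenic cultures. Only transgenic replicate 2 lay within the non-transgenic range, and the difference was 0.73 ± 0.35 (SE, limma adjusted p = 0.449). Eng, endoglin, a co-receptor for TGF-beta family ligands that fibroblasts also carry, was at 11.45, 11.39 and 11.85 against 11.91, 11.31 and 11.14. Its 2 probe sets differed by 0.12 ± 0.25 and 0.24 ± 0.34 (limma adjusted p = 0.865 and 0.791 over all probe sets), and the highest and the lowest culture on each were both non-transgenic. Cd34, a sialomucin of capillary endothelium, blood stem cells and adventitial fibroblasts, was at 11.86, 12.03 and 12.76 in transgenic cultures, against 12.24, 12.24 and 12.22 in non-transgenic cultures. The 3 non-transgenic values lay within 0.02 of each other, while the transgenic cultures fell on both sides of them, replicates 1 and 2 below and replicate 3 above. The mean difference was -0.02 ± 0.24 (SE, limma adjusted p = 0.980), against -0.29 without transgenic replicate 3, and its sign turned when arrays were centred on their medians.

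Cd93, a C-type lectin receptor of endothelium, had 5 probe sets. The only one above the filter was at 8.56, 7.88 and 7.99 in transgenic cultures, against 8.09, 8.23 and 8.13 in non-transgenic cultures, with no difference beyond the spread (-0.01 ± 0.30 SE, limma adjusted p = 0.992, and 0.07 without transgenic replicate 3). Thsd1, a thrombospondin-repeat protein of endothelial adhesion, was at 7.94, 7.18 and 7.67 against 8.08, 7.77 and 7.88, a difference of -0.31 ± 0.32 (limma adjusted p = 0.689). Its brightest probe set, like that of Egfl7, is of the kind that can bind transcripts of more than 1 gene. Clec14a, another C-type lectin, had 2 probe sets under the filter that were both low in transgenic replicates 1 and 2 but not in replicate 3. The dimmer was at 5.55, 5.81 and 7.59 in transgenic cultures, against 7.22, 7.37 and 7.82 in non-transgenic cultures, a difference of -1.16 ± 0.54 (SE, limma adjusted p = 0.387 over all probe sets). Without transgenic replicate 3 it was -1.79 and passed (limma adjusted p = 0.0268), while the brighter probe set, at -0.88, did not (limma adjusted p = 0.178).

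Mmrn2, a matrix protein that binds both lectins named above, lay under the filter on all arrays with its 4 probe sets. On 1 of them the groups did not overlap, at 5.05, 4.52 and 5.97 in transgenic cultures, against 6.34, 6.64 and 5.99 in non-transgenic cultures, a difference of -1.14 ± 0.43 (SE, limma adjusted p = 0.320 over all probe sets, unadjusted p = 0.0261). The other 3 had differences from -0.65 to -0.01. These values lie near the bottom of the scale, where a signal of 0 gives a log2 value of 4. Transgenic replicate 3 and non-transgenic replicate 3 were 0.02 apart, so the absence of overlap rests on a very small gap. Stab1, a scavenger receptor of sinusoidal endothelium and macrophages, was under the filter on every array, at 4.76, 4.71 and 6.94 in transgenic cultures, against 5.55, 5.35 and 6.02 in non-transgenic cultures. Its difference was -0.17, and -0.90 without transgenic replicate 3, with no call in either fit.

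The receptor genes were low. Robo4, an endothelial guidance receptor, and Adgrl4, an adhesion receptor of angiogenic vessels, were under the filter on every array, at 5.23 to 6.27 in the transgenic and 4.25 to 6.39 in the non-transgenic cultures on their brightest probe sets. Adgrf5, an adhesion receptor of lung and vascular endothelium, was at 8.59, 7.27 and 7.06 in transgenic cultures, against 8.76, 7.44 and 7.21 in non-transgenic cultures. In each group 1 culture, replicate 1, was above the filter and the other 2 were below it. The difference of -0.16 ± 0.56 (SE, limma adjusted p = 0.915) was far smaller than the range within either group, and it was 0.13 without transgenic replicate 3.

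The lymphatic markers did not share a direction. Lyve1, the hyaluronan receptor of lymphatic endothelium and of some tissue macrophages, was at 9.90, 9.20 and 8.16 in transgenic cultures, against 8.69, 8.16 and 8.21 in non-transgenic cultures on its brighter probe set. Transgenic replicates 1 and 2 were above all non-transgenic cultures and replicate 3 just below them. The difference was 0.73 ± 0.45 (SE, limma adjusted p = 0.520), and 1.20 ± 0.32 without transgenic replicate 3 (limma adjusted p = 0.0444). In the fit over every probe set the same 1.20 did not pass (limma adjusted p = 0.0608). The second probe set of Lyve1 was at 8.67, 8.68 and 8.14 against 8.61, 8.08 and 8.55, a difference of 0.08 ± 0.31 (limma adjusted p = 0.931 over all probe sets), and stayed uncalled at 0.26 without that array. Prox1, the transcription factor of lymphatic fate, was on its brightest probe set at 6.65, 7.66 and 6.85 in transgenic cultures, against 7.65, 8.03 and 7.83 in non-transgenic cultures, a difference of -0.78 ± 0.36 (limma adjusted p = 0.381 over all probe sets). Only transgenic replicate 2 reached the non-transgenic range. Its other 2 probe sets differed by -0.88 ± 0.60 and 0.04 ± 0.36.

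Of the ETS factors, Erg was under the filter and Fli1 above it. Erg, which is largely restricted to endothelium among vascular cells, was read by 2 probe sets under the filter on every array, the brighter at 6.60, 4.70 and 4.66 in transgenic cultures, against 4.90, 5.59 and 6.03 in non-transgenic cultures. Fli1, which blood cells express as well, was at 10.04, 10.99 and 9.45 against 10.06, 9.63 and 9.83 on its brighter probe set, where transgenic replicates 2 and 3 were the highest and the lowest of all 6. Its difference was 0.32 ± 0.39 (SE, limma adjusted p = 0.751), -0.10 without transgenic replicate 2 and 0.67 without transgenic replicate 3.

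Of the SOXF factors, which drive arterial and lymphatic development, Sox17 was at 5.76, 5.78 and 5.64 in transgenic cultures, against 6.24, 6.37 and 5.24 in non-transgenic cultures. Sox18 was at 5.82, 6.55 and 4.15 against 5.69, 5.80 and 6.19. Both were under the filter on every array. Sox7 was at 7.72, 8.71 and 7.96 in transgenic cultures, against 7.74, 7.23 and 7.07 in non-transgenic cultures, so that the groups nearly separated, transgenic replicate 1 lying just under non-transgenic replicate 1. The difference was 0.78 ± 0.37 (SE, limma adjusted p = 0.449), and the non-transgenic mean of 7.35 was itself below the filter. Its second, dimmer probe set had the opposite sign, at -0.44 ± 0.49 (limma adjusted p = 0.718 over all probe sets).

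Gata2 and Lmo2 are partners of Tal1 in a complex that acts in early endothelial and blood cells. Gata2 was at 10.08, 11.26 and 10.39 in transgenic cultures, against 10.80, 9.97 and 9.81 in non-transgenic cultures. Its 2 probe sets differed by 0.38 ± 0.37 and 0.38 ± 0.29 (limma adjusted p = 0.676 and 0.590 over all probe sets), with transgenic replicate 2 highest on both. Lmo2 was at 11.38, 10.72 and 9.75 against 10.29, 10.20 and 9.48, with transgenic replicates 1 and 2 above every non-transgenic culture. Its difference was 0.63 ± 0.43 (SE, limma adjusted p = 0.561), and 1.06 ± 0.32 without transgenic replicate 3 (limma adjusted p = 0.0634). Tal1 itself was under the filter, at 5.94, 4.40 and 4.73 against 6.13, 4.84 and 4.45. Hhex, a homeobox factor of early endothelium, was under it too, at 5.70, 6.78 and 6.20 in transgenic cultures, against 5.33, 5.69 and 5.49 in non-transgenic cultures. Its groups did not overlap, by a gap of 0.01, and the difference was 0.72 ± 0.37 (limma adjusted p = 0.418 over all probe sets).

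**Figure D2:**
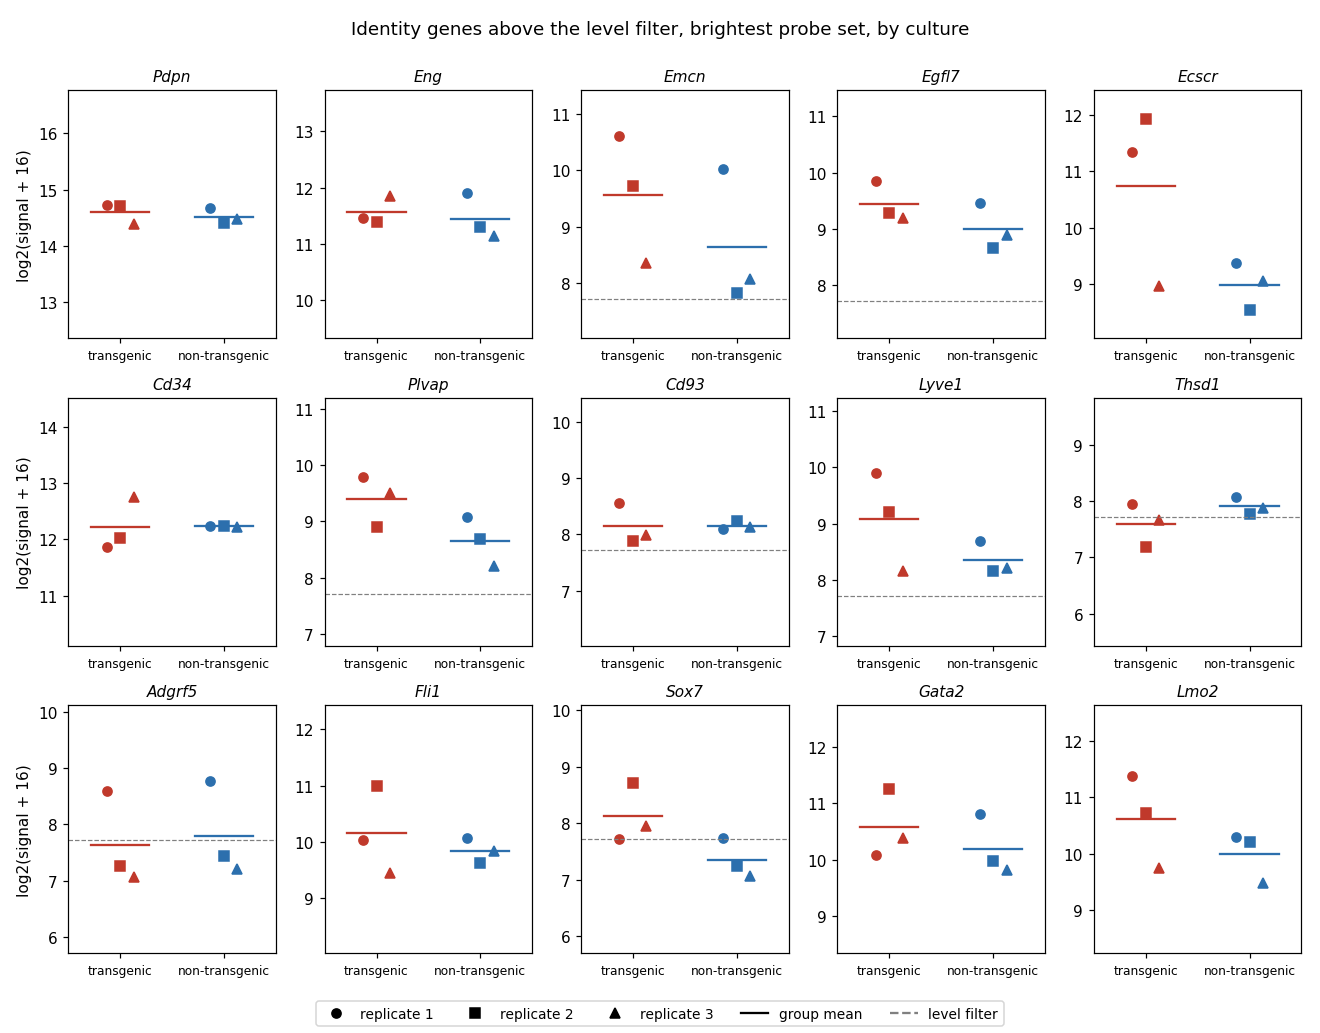
Level of the 15 genes above the level filter in every culture (y axis, log2(signal + 16), the same span in each panel around a different centre), with transgenic cultures left of non-transgenic ones, marker shapes for replicate numbers, bars for group means and a dashed line for the filter at 7.72 where it falls in the panel. Ecscr, Lyve1, Lmo2 and, by a small margin, Pdpn are higher in transgenic replicates 1 and 2 than in every non-transgenic culture, and their replicate 3 is not.

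With all 6 arrays no member passed the test. limma with Benjamini-Hochberg adjustment called 0 of the 15 members tested, with the background at 0% of 11208 genes, and 0 of the 56 member probe sets, with the background at 0% of 45037 probe sets. At an unadjusted p of 0.05, 1 of the 15 passed, Ecscr, against 11.5% of all genes tested. None of the 15 had groups without overlap, against 16.1% of tested genes. Of the 56 probe sets 3 had none, against 18.4% of all probe sets, and they belonged to Hhex (higher), Mmrn2 and Cd93 (lower), all under the filter. The Cd93 probe set was at 4.56, 4.21 and 4.89 in transgenic cultures, against 5.64, 4.98 and 5.21 in non-transgenic cultures, close to the bottom of the scale. These counts depended on the scaling. With arrays centred on their medians 8 member probe sets did not overlap, against 24% of all probe sets, all 8 higher in transgenic cultures and of Cd93, Egfl7, Hhex, Pdpn, Plvap and Sox7, where 18.9% of all probe sets were higher and 5.1% lower without overlap, against 5.88% and 12.6% as deposited. With quantile normalization there were 5, all higher, against 17.3% of all probe sets (8.99% higher and 8.27% lower). They were of Egfl7, Hhex, Mmrn2 and Sox7, and the Mmrn2 probe set was not the one without overlap in the values as deposited.

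Over all 32 members, each by its brightest probe set and with no filter, 18 were higher and 14 lower in transgenic cultures, with a median difference of 0.07, against -0.03 over all 18193 genes. Of the 15 above the filter 11 were higher and 4 lower, with a median difference of 0.38, against -0.02 over the 11208 genes tested, of which 47.5% were higher. With arrays centred 14 of the 15 were higher, with a median of 0.65, against 0.25 and 75.3% of genes tested. Since the filter acts on the mean over both groups, a gene that is high in 1 group passes it more easily, so these counts describe only the 15. By role, 4 of 6 junction genes, 7 of 13 glycoproteins, 2 of 3 receptors and 5 of 10 transcription factors were higher. Of the 16 genes with several probe sets, 11 had 1 sign on all of them and 5 had mixed signs. Among the 15 genes above the filter transgenic replicate 1 was the highest culture for 7 and transgenic replicate 2 for 4, while non-transgenic replicate 3 was the lowest for 5 and transgenic replicate 3 for 4. Transgenic replicates 1 and 2 were both above every non-transgenic culture for 4 of the 15 (Pdpn, Ecscr, Lyve1 and Lmo2), which is 26.7%, against 22.8% of all genes tested. They were both below for 1 of the 15, Cd34, against 27.4% of genes tested.

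Without transgenic replicate 3, 2 of the 15 members passed, Ecscr and Lyve1, both higher, against 14.7% of all genes tested (6.88% higher). Among the 56 probe sets 2 passed, of Ecscr and Clec14a and not of Lyve1, against 7.27% of all. The share of members called was thus near or under the background in both fits. The array was left out for its likeness to the non-transgenic arrays, so calls made without it are no independent support for a group difference. With estimated array weights, a fit that counted some arrays far more than others, 9 of the 15 passed, against 49.1% of all genes.

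**Figure D3:**
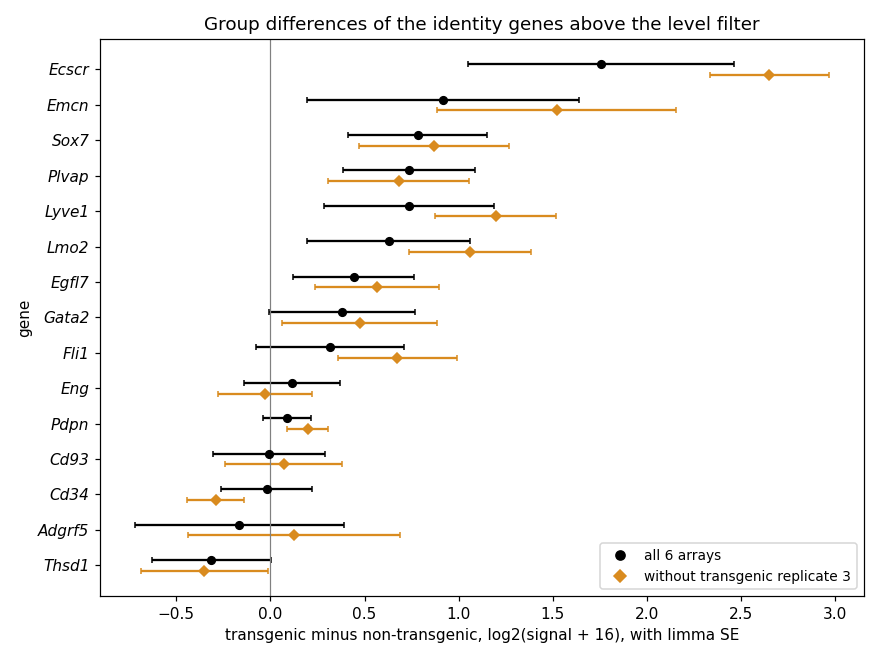
Difference of each of the 15 genes above the level filter (x axis, transgenic minus non-transgenic, log2(signal + 16), bars are limma standard errors), with all 6 arrays as black circles and without transgenic replicate 3 as orange diamonds. Leaving that array out moved Ecscr to 2.65 and Lyve1 to 1.20, where both passed the test, and moved Eng to -0.03.

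Of 30 further blood endothelial genes on the array 15 lay above the filter, and limma called 0 with all arrays and 6 of the 15 without transgenic replicate 3, against 14.7% of genes tested, with 3 of the 6 higher, against 6.88%. Of the 15, 7 were higher and 8 lower, with a median difference of -0.10. Nrp1, a co-receptor for VEGF and semaphorins, was at 13.55, 13.36 and 14.39 in transgenic cultures, against 14.72, 14.77 and 14.89 in non-transgenic cultures, with no overlap and a difference of -1.02 ± 0.25 (SE, limma adjusted p = 0.428). Mef2c, a transcription factor of endothelium and muscle, differed by -0.92 ± 0.31, and Rasip1, a Ras-interacting protein of vessel lumen formation, by 1.13 ± 0.44 (limma adjusted p = 0.428 each). Kdr, the main VEGF receptor of endothelium, and Nos3, its nitric oxide synthase, were under the filter. Kdr was at 6.42, 8.84 and 7.27 in transgenic cultures, against 8.15, 7.38 and 7.71 in non-transgenic cultures. Nos3 was at 7.35, 7.63 and 7.27 against 7.19, 6.25 and 6.96, with no overlap and a difference of 0.62 ± 0.37 (SE, limma adjusted p = 0.577 over genes without a filter).

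Of 9 further lymphatic genes on the array 6 lay above the filter, 2 higher and 4 lower, with a median difference of -0.33. limma called 0 of them with all arrays and 2 of the 6 without transgenic replicate 3, both lower, against 7.83% of genes tested called lower. Nr2f2, the venous and lymphatic factor COUP-TFII, which fibroblasts also express, was at 13.61, 13.61 and 13.69 in transgenic cultures, against 14.01, 13.91 and 14.15 in non-transgenic cultures, a difference of -0.39 ± 0.11 (SE, limma adjusted p = 0.428). Itga9, an integrin of lymphatic valves, differed by 0.98 ± 0.32 and the connexin Gja1 by -0.26 ± 0.10 (limma adjusted p = 0.428 each). For these 3 genes, which were picked by smallest p, the groups did not overlap, against 16.1% of all tested genes. Centring arrays on their medians moves every difference up by 0.27, the size of the Gja1 difference and most of the Nr2f2 one. Flt4, the VEGF receptor of lymphatic endothelium, was under the filter.

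The labelled cell type was checked against markers of other cells that an aortic preparation could hold. The filter was passed by all 22 fibroblast markers, 11 of 16 markers of smooth muscle, 7 of 10 of adipocytes, 7 of 11 of mesothelium, and 4 of 20 of leukocytes and macrophages. Of the 32 members 15 passed it, and 15 of the 30 further blood endothelial genes. Cdh5, Pecam1, Vwf, Erg, Cldn5, Robo4 and Sox17 were under it on all 6 arrays. Above it on all 6 were, among others, Emcn, Egfl7, Ecscr, Plvap and Cd93, and the further genes Flt1, Calcrl, Ephb4, Efnb2 and Ramp2. The summed signal of the fibroblast markers was 276270 to 343663 in the transgenic and 337990 to 380328 in the non-transgenic cultures. Since levels cannot be compared between genes, the counts of the lists do not measure the part of each cell type in the cultures.

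**Figure D4:**
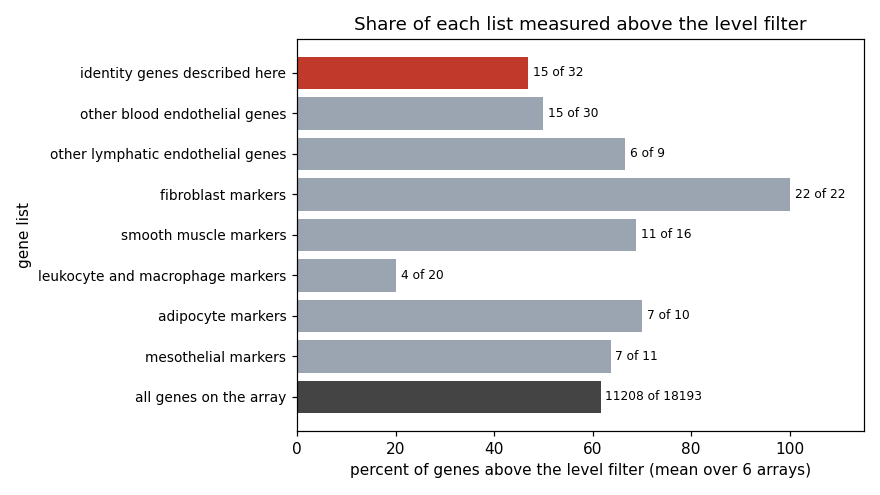
Percent of the genes of each list whose brightest probe set has a mean above the level filter over the 6 arrays, with the counts beside the bars. The 32 genes described here stand at 46.9%, all 22 fibroblast markers are above the filter, and 61.6% of all genes are. Levels cannot be compared between genes, so the bars do not measure the part of each cell type.

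The summed signal of 20 leukocyte and macrophage markers was highest on transgenic replicate 2. It was 11810, 22903 and 5152 in transgenic replicates 1, 2 and 3, against 3547 to 5152 in the non-transgenic cultures. Bright probe sets weigh most in this sum. Cd53 alone gave 6403 of it on transgenic replicate 1 and 10003 on replicate 2, and Lyz2 gave 1310 and 5960. By count, 11 of the 20 were above the filter on transgenic replicate 2, against 4 or 5 on each other array. Not all markers of the list followed this. Ptprc, the pan-leukocyte protein CD45, and the macrophage marker Adgre1 were under the filter on all 6 arrays. Ptprc was lower in all transgenic cultures, at 5.89, 5.83 and 5.88, against 7.66, 5.96 and 7.16 in non-transgenic cultures. Cd14, above the filter, was lowest on transgenic replicate 2, at 8.90, against 9.81 to 10.47 on the other arrays. Cd53 was at 12.65, 13.29 and 8.43 in transgenic cultures, against 10.41, 8.60 and 7.74 in non-transgenic cultures. The markers were mixed on transgenic replicate 1. Cd53, Csf1r, Cd68 (at 7.80) and Lyz2 (at 10.37) were above every non-transgenic culture there. Tyrobp, at 5.33, and C1qb, at 6.14, were at their lowest of the 6 arrays, and Ctss and Laptm5, at 6.50 and 6.22, lay within the non-transgenic range. Of the members above the filter, Ecscr, Lyve1, Lmo2 and, by a small margin, Pdpn were likewise highest in transgenic replicates 1 and 2. Fli1, Gata2 and Sox7 were highest in replicate 2. Lyve1, Lmo2, Pdpn and Emcn, among others, were higher on transgenic replicate 1 than on replicate 2, the reverse of the summed signal. Ecscr, Fli1, Gata2, Sox7 and Cd34 were higher on replicate 2 than on replicate 1. The part of blood cells in these results was not tested, nor was that of the Gapdh ratio, which was lowest on transgenic replicates 1 and 2.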

How the data were processed

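RNA of 6 cultures was measured on Affymetrix mouse arrays after a 2-step amplification from about 50 ng, per the labels' protocols. The authors deposited a linear intensity for each probe set on each array. They used MAS5, per the submitters' processing notes, which name no version. Values ran from 0.1 to 67821.8 and were not rescaled. Detection calls were not used here. Of 45037 probe sets, 34945 had 1 gene in the array annotation, 932 several (unnamed) and 9160 no entry. RefSeq's table (GRCm38.p6) gave current symbols, matched on gene identifier, for 34754 of them.

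Groups came from the titles. Values were taken as log2(intensity + 16). The main test was limma 3.58.1 in R 4.3.3 (lmFit, eBayes with trend, two-sided, Benjamini-Hochberg at 0.05) over 11208 genes, each represented by its brightest probe set and kept where that mean reached the median; a further fit covered all 45037 probe sets. The limma test was first tested on simulated data. The number of arrays limits the precision. Members and gene lists were chosen with earlier results of these data known. All members are named, the others by smallest p (3 per list) with Kdr, Nos3 and Csf1r; genes just above or under the filter, and those whose groups did not overlap, were named after their values were seen. Alternatives were other pseudocounts, filters, scalings, probe set summaries, variance priors, array weights, a replicate block and each array left out. Motifs were counted in RefSeq promoter windows.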

Additional observations from a re-analysis of the deposited data

How the results depend on the processing

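With all 6 arrays and 1 probe set per gene, limma called 0 genes and 0 members under each alternative for pseudocount, filter, scaling, variance prior and probe set summary, with array weights as the exception (5504 genes and 9 members). Over every probe set only centring, the filter, the block and left-out arrays were tried, and the first 3 of these gave 0 member probe sets. Leaving out 1 array at a time gave 0 to 1649 genes and 0 to 2 members, and 0 to 3276 probe sets and 0 to 2 member probe sets, the highest each time without transgenic replicate 3. The labels do not say whether cultures with the same replicate number belong together. Over 11208 genes their deviations showed no shared direction (correlations 0.04, -0.28 and -0.03), which does not settle it for single members. With the replicate block 0 genes, 0 members and 0 member probe sets were called. Member probe sets without overlap numbered 3 as deposited, 8 with arrays centred on their medians and 5 with quantile normalization. With the filter at the 75th percentile 3 members lay above it (Pdpn, Eng and Cd34), against 15. Differences near 0 changed sign: Cd34 was 0.25 centred, Cd93 was 0.30 with array weights, 0.26 centred and 0.25 with quantile normalization, Thsd1 was 0.068 with array weights, and Adgrf5 was 0.95 with array weights and 0.105 both centred and with quantile normalization. For the centred values the change follows from the centring itself, which moved every difference up by 0.27. For the other settings the cause was not tested. With 1 array left out the range was -0.041 to 0.35 for Eng, -0.29 to 0.16 for Cd34, -0.22 to 0.12 for Cd93, -0.64 to 0.32 for Adgrf5, -0.10 to 0.67 for Fli1, and -0.29 to 0.48 for the dimmer Cdh5 probe set. Ecscr ranged from 1.16 to 2.65 and Lyve1 from 0.33 to 1.20. Of 281 values for 22 genes or probe sets, 248 kept their direction and side of the threshold. Since most alternatives called 0 genes in all, the side of the threshold was nearly fixed beforehand, and this count does not measure robustness. Ecscr entered it both as a gene and as its only probe set.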

Other observations

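Genes of the other cell types, 3 per list by smallest p, did not pass the test with all arrays either. Among fibroblast markers, of which 7 were higher and 15 lower, the surface glycoprotein Thy1 differed by 0.90 ± 0.26 (SE, n = 3 per group), the actin-severing protein Gsn by -0.32 ± 0.10 and the matrix protein Postn by -0.73 ± 0.25 (limma adjusted p = 0.428 each). Among smooth muscle markers, 3 higher and 8 lower, the integrin Itga8 differed by -0.87 ± 0.37 (limma adjusted p = 0.434), Smtn by 0.51 ± 0.31 and Lmod1 by -0.53 ± 0.45. Of the mesothelial markers, 4 were higher and 3 lower, with Bnc1 at -1.54 ± 0.54, Wt1 at -0.79 ± 0.40 and Krt7 at 0.86 ± 0.44.

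All 7 adipocyte markers above the filter were lower in transgenic cultures, where 47.5% of all genes tested were higher. Among them were the lipase Lpl at -0.98 ± 0.32, the glucose transporter Slc2a4 at -2.96 ± 0.99 and the fat hormone Adipoq at -2.44 ± 0.996 (SE, limma adjusted p = 0.428 each). Non-transgenic replicate 1 was the highest culture for all 7 but Lpl. Dgat2 was at 9.80, 9.43 and 9.94 in transgenic cultures, against 12.13, 9.63 and 9.39, so only that replicate was above the transgenic ones. Of the leukocyte markers above the filter 3 were higher and 1 lower. Csf1r, the receptor of a macrophage growth factor, was at 11.03, 10.49 and 10.59 in transgenic cultures, against 8.94, 9.06 and 8.61 in non-transgenic cultures, and Cd53 differed by 2.54 ± 1.25 and the lysozyme gene Lyz2 by 1.15 ± 0.64. Unlike Ecscr, Lyve1 and Lmo2, Csf1r was above every non-transgenic culture in all 3 transgenic ones.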
